A study of Mus musculus with 6 samples.

Results

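Kupffer cell identity genes are the genes by which the resident macrophages of the liver are usually told from other macrophages. The 7 genes examined here, Clec4f, Timd4, Vsig4, Cd5l, Marco, Cd163 and Folr2, were chosen as known markers of these cells and found by name among the 56884 mouse genes of the count table, and all 7 were among the 18018 genes tested. The mice were male athymic BALB/c (nu/nu) animals aged 6 weeks with cells of a human hepatocellular carcinoma (HCC) line, QGY-7703, placed in the liver. After 1 week, both groups received an AAV8 vector through the tail vein, carrying siControl in the group labelled WT and an siRNA against mouse Aatf (siAATF) in the group labelled KD, and tissue labelled as liver was taken 3 weeks later. There were 3 libraries in each group. The vector's TBG promoter is active in hepatocytes, not in macrophages, a single tumor line was used, and athymic mice have few mature T cells but keep their macrophages. The labels do not say that the replicates are separate animals, so p-values measure only the spread between these libraries.

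Kupffer cells line the liver sinusoids, where they clear microbes, aged red cells and debris from the blood. Stellate cells, endothelial cells and hepatocytes around them supply the signals, among them Csf1, Notch ligands and TGF-β family ligands, that switch on transcription factors such as Nr1h3, Id3 and Spic and through them the identity genes. Macrophages that newly enter the liver from blood share the general macrophage genes but carry few of these markers at first, and Timd4 is one of the last to appear.

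Of all gene counts, 98.1% to 99.2% were human in siControl and 0.972% to 2.14% in siAATF, so the mouse totals were 213022 to 913584 counts in siControl and 11835898 to 42563694 in siAATF. Mitochondrial genes took 4.04% to 10.5% of the mouse counts in siControl and 20.8% to 56.1% in siAATF, most in siAATF replicate 2, and the 10 hepatocyte markers took 0.576% to 1.32% and 1.62% to 6.22%. The siControl libraries thus held mostly RNA of the human tumor and the siAATF libraries mostly RNA of the mouse. The label is liver throughout, the study's methods speak of tumor tissue, and whether the same tissue was sampled in both groups is not stated. The make-up of the tissue differed with the group, and its part in the results cannot be told apart from that of the siRNA. In such bulk RNA, fewer cells of a type and less RNA per cell cannot be told apart either. Levels are given as CPM, the counts per 1e+06 mouse counts after TMM scaling, which sets the libraries level over the bulk of the mouse genes, and tests are edgeR quasi-likelihood tests with Benjamini-Hochberg adjustment over all 18018 genes. The siRNA target itself was not lower on this scale. Aatf had 9.62, 2.41 and 12.8 CPM in siControl replicates 1 to 3, and 13.2, 22.0 and 18.8 CPM in the siAATF libraries (log2 fold change 0.93, SE 0.47, adjusted p = 0.152). Scaling by the mouse total alone gave a pooled fold of 0.474, but the groups overlapped. Per 1e+06 mouse counts Aatf then had 17.1, 4.69 and 25.2 in siControl and 9.02, 9.21 and 9.72 in siAATF. Directions below therefore refer to the labels.

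Clec4f, Cd5l and Vsig4 held 87.0% to 100% of the counts of the 7 genes in each library, and their promoters are shown for that reason. Each runs from 250 bases before to 50 bases after the start of transcription (RefSeq, GRCm38.p6, not the GRCm39 build of the count table), read 5′ to 3′ on the gene's strand, with the PU box GAGGAA or its reverse complement TTCCTC in capitals. This short sequence is bound by PU.1, the ETS factor that macrophages depend on.
Clec4f (chr6:83656067-83656366, minus strand): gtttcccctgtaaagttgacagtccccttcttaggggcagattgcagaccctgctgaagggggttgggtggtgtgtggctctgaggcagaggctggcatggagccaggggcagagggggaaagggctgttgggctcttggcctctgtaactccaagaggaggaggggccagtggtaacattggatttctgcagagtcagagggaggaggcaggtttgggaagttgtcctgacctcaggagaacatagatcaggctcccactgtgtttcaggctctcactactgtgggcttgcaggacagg
Cd5l (chr3:87357631-87357930, plus strand): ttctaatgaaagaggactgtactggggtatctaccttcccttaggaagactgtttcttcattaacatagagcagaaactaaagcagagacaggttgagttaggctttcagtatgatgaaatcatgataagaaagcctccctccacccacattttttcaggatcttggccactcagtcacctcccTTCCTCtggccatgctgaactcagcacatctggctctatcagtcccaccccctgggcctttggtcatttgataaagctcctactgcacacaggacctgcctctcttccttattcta
Vsig4 (chrX:96293389-96293688, minus strand): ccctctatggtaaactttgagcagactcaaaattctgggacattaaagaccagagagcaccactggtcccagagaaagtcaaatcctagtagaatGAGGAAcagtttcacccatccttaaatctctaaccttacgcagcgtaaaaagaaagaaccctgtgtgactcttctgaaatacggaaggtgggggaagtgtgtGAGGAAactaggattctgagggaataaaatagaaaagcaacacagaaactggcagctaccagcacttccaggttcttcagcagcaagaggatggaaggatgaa
The Vsig4 promoter held 2 PU boxes, the upstream one at position -155 from the start, the Cd5l promoter held 1 at -66, and the Clec4f promoter held none of these letters. Of the 8 promoters listed for the 7 genes (Folr2 has 2), 3 held a PU box on either strand, against 28.3% of all 32851 promoters of this length. The core site of MAF factors, TGCTGA or TCAGCA, was in 6 of the 8 and in 19.5% of all promoters, and the nuclear receptor core site AGGTCA or TGACCT was in 2, those of Clec4f and Timd4, and in 16.3% of all. The RBPJ core TGGGAA or TTCCCA was in 2 of the 8 against 25.6% of all, and the SMAD letters CAGAC or GTCTG were in 5 against 49.6%. These matches are a description of the letters and not of bound sites.

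After TMM scaling, 1 of the 7 genes, Cd163, was called higher in siAATF at an adjusted p under 0.05 and 0 were called lower, while 17.6% of all genes tested were called higher and 14.4% lower. The share of the Kupffer cell genes called was thus near the background. Cd163 had 0 siControl counts and met the filter of at least 10 counts in total through the siAATF libraries alone. Its call is therefore no separate support for a difference. At an unadjusted p under 0.05, Clec4f, Timd4 and Cd163 were higher, as were 24.4% of all genes, and Folr2 was lower, as were 17.8%. The adjusted test of DESeq2 called 1 of the 7 higher (16.8% of all genes) and 0 lower (16.3%), and that of limma-voom called 2 higher (13.9%) and 1 lower (17%). The study's rule is an unadjusted p under 0.05 together with an absolute log2 fold change of 2 or more, set on DESeq2. Put on the edgeR fit instead, these cut-offs called Cd163 higher (background 13.6%) and Folr2 lower (background 13.1%). On the DESeq2 fit Cd163 still met them, but Folr2 did not, since its unadjusted p was above 0.05. In 3 of the 7, Clec4f, Timd4 and Cd163, every siAATF library lay above every siControl library, a pattern that 34.5% of all genes had. The median log2 fold change of the 7 was 1.30, with Cd163 at its lower bound as well, against 0.50 over all genes. The count of 1 rested on single libraries: it was 2 without siControl replicate 1, 0 without siControl replicate 3, 3 without siAATF replicate 2 and 2 without siAATF replicate 3, with 9.08% to 21.0% of all genes called higher as each library was left out.

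**Figure D1:**
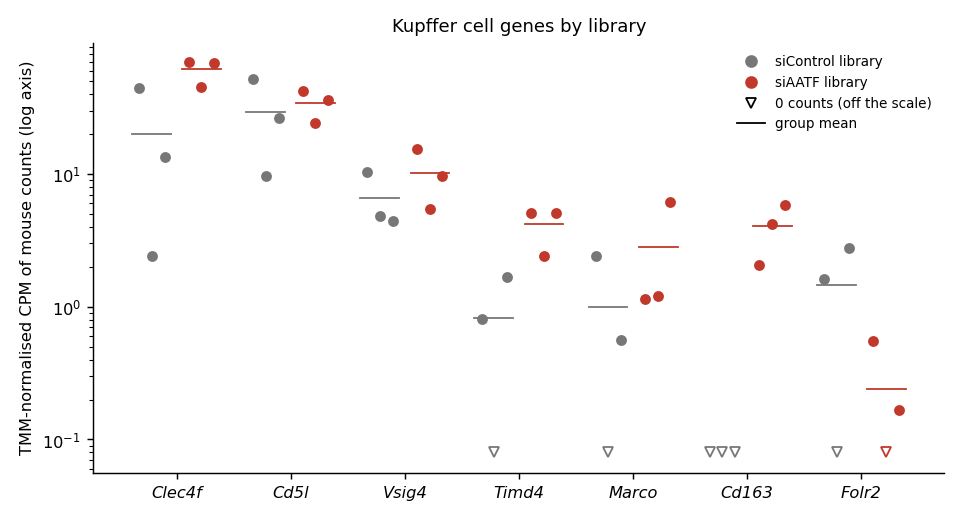
TMM-normalised CPM of the 7 genes in each library on a log axis, with points for libraries, bars for group means of 3 libraries and open triangles for libraries with 0 counts. Every siAATF library is above every siControl library for Clec4f, Timd4 and Cd163, Cd163 has 0 counts in all 3 siControl libraries, and siControl replicate 2 has the lowest Clec4f and Cd5l values.

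Clec4f (chr6:83621524-83633169 of GRCm39) encodes a C-type lectin that in mice is largely restricted to Kupffer cells. The siControl libraries (replicates 1 to 3) gave 55, 1 and 24 Clec4f counts, and the siAATF libraries gave 2015, 225 and 1246. On the TMM scale these were 44.1, 2.41 and 13.4 CPM against 69.5, 45.3 and 69.0 CPM. All siAATF libraries were above all siControl libraries, though siControl replicate 1 and siAATF replicate 2 were nearly level. The means of 20.0 ± 21.6 (SD, n = 3) and 61.3 ± 13.8 (SD, n = 3) gave a log2 fold change of 1.50 (SE 0.59, adjusted p = 0.0705), which did not pass and which scaling by the mouse total turned to -0.21. Clec4f passed without siControl replicate 1 (2.66, adjusted p = 0.00635), without siAATF replicate 2 (1.74, adjusted p = 0.0356) or replicate 3 (1.50, adjusted p = 0.0274) and with limma-voom (1.88, adjusted p = 0.0477). Without a gene filter it was 1.63 (adjusted p = 0.00144) and with the replicate number as a block 1.86 (adjusted p = 6.79e-05), though the numbers were not found to pair the libraries. It did not pass without any of the other 3 libraries, at 1.11 to 1.46, with the highest adjusted p, 0.272, without siControl replicate 3.

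Timd4 (chr11:46701627-46735159) encodes a receptor for phosphatidylserine, through which long-resident Kupffer cells take up dying cells. Counts of 1, 0 and 3 stood against 148, 12 and 91 in siAATF, which is 0.802, 0 and 1.67 CPM against 5.10, 2.42 and 5.04 CPM. The groups did not overlap, but the siControl side rested on 4 counts. The log2 fold change was 1.95 (SE 0.84, adjusted p = 0.0967), and the pooled ratio was 4.17 with a 95% counting interval of 1.61 to 15.4. Scaled by the mouse total it was 0.22 (adjusted p = 0.864). Without siAATF replicate 2 the change passed, at 2.25 (adjusted p = 0.0474), and it did not pass without any other single library, being 2.83 (adjusted p = 0.146) without siControl replicate 3.

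Vsig4 (chrX:95290809-95337044) encodes the complement receptor CRIg, which captures opsonized microbes from the blood. The siControl counts were 13, 2 and 8 and the siAATF counts 446, 27 and 173, which is 10.4, 4.83 and 4.46 CPM against 15.4, 5.44 and 9.59 CPM. The groups overlapped, since siControl replicate 1 was above 2 of the siAATF libraries. The log2 fold change of 0.60 (SE 0.55, adjusted p = 0.415) did not pass and turned to -1.08 when scaled by the mouse total.

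Cd5l (chr3:87265188-87278380) encodes a secreted scavenger-type protein, also called AIM, that macrophages release into the blood. It gave 65, 4 and 47 siControl counts and 1213, 120 and 654 siAATF counts, or 52.1, 9.65 and 26.2 CPM against 41.8, 24.2 and 36.2 CPM. The highest and the lowest values both came from siControl libraries, so that the siAATF values lay within the siControl range. The log2 fold change was 0.14 (SE 0.47, 95% interval -0.89 to 1.17, adjusted p = 0.848), and under scaling by the mouse total it was -1.57 (adjusted p = 0.0216).

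Marco and Cd163 encode scavenger receptors, Marco for bacteria and particles and Cd163 for complexes of haemoglobin with haptoglobin. Marco (chr1:120402267-120432753) gave 3, 0 and 1 siControl counts and 33, 6 and 110 siAATF counts, or 2.41, 0 and 0.557 CPM against 1.14, 1.21 and 6.09 CPM. Only siAATF replicate 3 stood above the siControl range, and the log2 fold change of 1.30 (SE 1.10, adjusted p = 0.380), which scaling by the mouse total turned to -0.52, did not pass. It was 0.11 without siAATF replicate 3 and 2.68 without siControl replicate 1. Cd163 (chr6:124281615-124307486) was without counts in all 3 siControl libraries, against 60, 21 and 106 counts in siAATF, or 2.07, 4.23 and 5.87 CPM. Taking 3 counts over the siControl group as the limit, Cd163 was at least 4.14-fold higher in siAATF on the TMM scale (adjusted p = 0.0120) and at least 1.28-fold higher per mouse count. At the siAATF mean of 4.06 ± 1.91 CPM (SD, n = 3), the siControl libraries together would have held 14.0 counts, a depth at which absence cannot be shown. Cd163 missed the threshold without siControl replicate 3 (adjusted p = 0.0643) and with scaling by the mouse total (adjusted p = 0.0661).

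Folr2 (chr7:101489195-101506401) encodes folate receptor beta, found on resident macrophages of several tissues. It stood apart from the other 6, with 2, 0 and 5 siControl counts and 16, 0 and 3 siAATF counts, or 1.60, 0 and 2.79 CPM against 0.551, 0 and 0.166 CPM. Values were lower in siAATF except that siControl replicate 2 had 0 counts too. The log2 fold change of -2.59 (SE 1.16, adjusted p = 0.109) did not pass after adjustment and turned to 1.62 when scaled by the human and mouse total. It passed as lower with limma-voom (-2.99, adjusted p = 0.0212) and with the mouse total, whether with (-4.23, adjusted p = 0.00863) or without mitochondrial genes (-3.84, adjusted p = 0.0262), and it ranged from -3.71 without siAATF replicate 1 to -1.91 without siControl replicate 3. Exons of Folr2 overlap those of Gm10602, a long noncoding RNA gene on the other strand, and since the use of strand in counting is not stated, reads of the pair cannot be told apart.

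Per unit of transcript length, as TPM (length-scaled counts out of 1e+06 over all mouse genes), the order of the levels differed between the groups. In siAATF Clec4f led with a mean TPM of 20.7 ± 9.35 (SD, n = 3), followed by Cd5l with 14.2 ± 7.31, Vsig4 with 6.26 ± 4.66, Timd4 with 1.64 ± 0.913, Marco with 1.14 ± 1.10, Cd163 with 0.685 ± 0.270 and Folr2 with 0.180 ± 0.233. Clec4f was above Cd5l, and Cd5l above Vsig4, within each of the 3 libraries, while Timd4 and Marco, and Marco and Cd163, changed places between libraries. In siControl Cd5l led with 52.6 ± 36.0 TPM, followed by Clec4f with 29.1 ± 30.2, Vsig4 with 16.8 ± 7.57, Folr2 with 4.17 ± 4.13, Marco with 1.84 ± 2.27, Timd4 with 1.44 ± 1.51 and Cd163 with 0. There Cd5l was above Clec4f and Vsig4 in every library, and Clec4f and Vsig4 changed places.

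The balance of Clec4f and Cd5l needs no scaling between libraries, since both counts come from the same library. Clec4f made up 39.6%, 14.3% and 27.3% of the counts of the 7 genes in the siControl libraries, and 51.3%, 54.7% and 52.3% in the siAATF libraries. Cd5l made up 46.8%, 57.1% and 53.4% in siControl and 30.9%, 29.2% and 27.4% in siAATF. Neither share overlapped between the groups, although siControl replicate 2 held only 7 counts, with an exact 95% binomial interval of 0.361% to 57.9% for its Clec4f share. Per length there were 0.697, 0.206 and 0.421 Clec4f transcripts for each Cd5l transcript in siControl and 1.37, 1.54 and 1.57 in siAATF, means of 0.441 ± 0.246 and 1.49 ± 0.110 (SD, n = 3; p = 0.1 by an exact two-sided permutation test, which with 3 libraries against 3 is the lowest p possible). This pair was picked after the values were seen. The intervals hold for counting error alone, because PCR copies of a molecule are not independent.

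**Figure D2:**
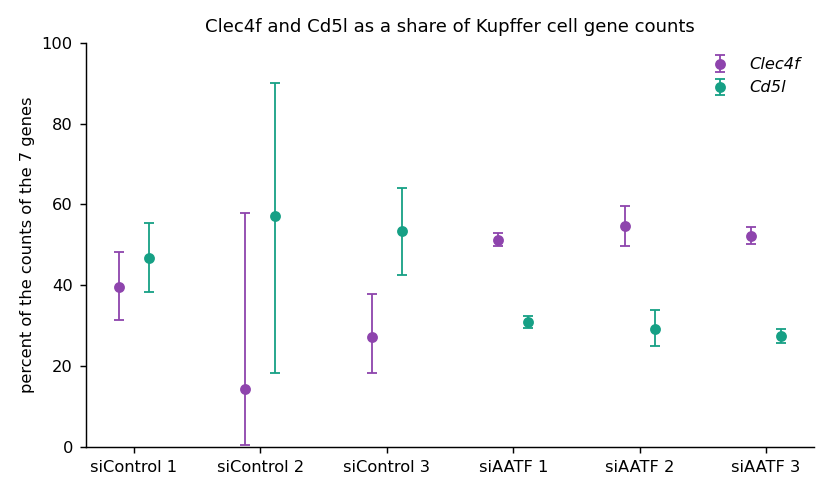
Clec4f and Cd5l as a percentage of the counts of the 7 Kupffer cell genes in each library, with exact 95% binomial intervals for counting error. Cd5l is above Clec4f in the 3 siControl libraries and below it in the 3 siAATF libraries, and the wide bars of siControl replicate 2 reflect its 7 counts.

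The genes that Kupffer cells share with other macrophages were examined next. Of these 14 shared macrophage genes, 13 fell and 0 rose on the TMM scale, against 14.4% and 17.6% of all genes. Their median log2 fold change was -4.40, against 0.50 over all genes. Under scaling by the human and mouse total the median was -0.17, with 2 called higher and 0 lower, against a median of 4.66 over all genes and 87.2% of them called higher. Scaled by the mouse total, all 14 were called lower, against 40.3% of all genes. Lyz2, the lysozyme of phagocytes, had a mean of 751 ± 193 CPM in siControl and 16.7 ± 14.1 CPM in siAATF (SD, n = 3; log2 fold change -5.47, SE 0.74, adjusted p = 0.000196). C1qa, a chain of complement C1q, fell from 639 ± 444 to 55.2 ± 8.75 CPM (log2 fold change -3.53, SE 0.62, adjusted p = 0.000928). Ctss, a lysosomal protease, fell by 5.43 on the log2 scale (SE 0.62, adjusted p = 7.31e-05). The gene of the 14 that did not pass was Mertk, a receptor for dying cells (0.16, adjusted p = 0.794), named here after its value was seen. Summed, the list took 0.533% to 1.21% of mouse counts in siControl and 0.00862% to 0.0220% in siAATF, none of its genes being at 0, while the 7 Kupffer cell genes took 0.00329% to 0.0198% and 0.00347% to 0.00924%, ranges that overlapped.

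Set against these shared macrophage counts within each library, the 7 genes summed to 16.3, 6.17 and 12.0 counts per 1000 macrophage counts in the siControl libraries, and to 477, 403 and 310 in the siAATF libraries. The groups were far apart, with means of 11.5 ± 5.09 and 397 ± 83.5 (SD, n = 3), a 34.5-fold difference. Clec4f went from 3.54 ± 2.80 to 209 ± 42.3 per 1000, Cd5l from 5.86 ± 2.11 to 117 ± 31.0, Vsig4 from 1.46 ± 0.339 to 34.4 ± 17.2 and Timd4 from 0.176 ± 0.211 to 13.9 ± 3.55. Marco had 0.163 ± 0.177 and 8.07 ± 5.50 per 1000, Cd163 had 0 and 13.9 ± 6.66, and Folr2 had 0.306 ± 0.347 and 0.777 ± 1.03. For each gene but Folr2 the groups were apart (p = 0.1 by an exact two-sided permutation test of each, the lowest possible, and p = 0.7 for Folr2), and so were 80.1% of all genes tested, every siAATF library lying above every siControl library per macrophage count. With the macrophage counts as library size, 6 of the 7 were called higher, as were 82.1% of all genes, and the median gene rose by 4.42 on the log2 scale, so neither count sets the Kupffer cell genes apart from other mouse genes.

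**Figure D3:**
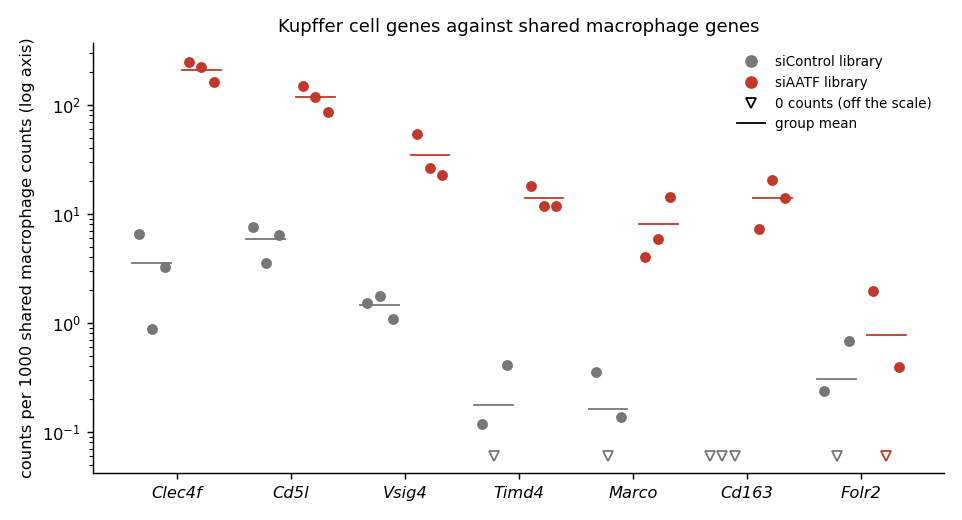
Counts of each gene per 1000 counts of the 14 shared macrophage genes of the same library, on a log axis, with points for libraries, bars for group means and open triangles for 0 counts. For all but Folr2, every siAATF library is above every siControl library.

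The size of this ratio depended on what stood below it. Per Adgre1 (F4/80) count it was 76.5-fold higher in siAATF, per Cd68 count 95.4-fold, and per count of the 3 C1q genes 31.4-fold. Per count of the 12 monocyte and recruited macrophage genes it was 4.80-fold higher, and 46.0-fold without Arg1, which hepatocytes express as well and which was left out after its values were seen. Per count of the 8 sinusoidal endothelial markers the fold was 4.89. Per 1000 hepatocyte marker counts the direction turned, with 15.0, 5.71 and 16.1 counts of the 7 genes in siControl and 1.49, 2.14 and 1.18 in siAATF, all siAATF libraries being lower. Relative to hepatocyte RNA, Kupffer cell gene RNA was thus lower in siAATF, and relative to macrophage RNA it was higher. On the TMM scale the hepatocyte markers had a median log2 fold change of 4.58 and the shared macrophage genes -4.40, against 0.50 over all genes. Shares of all genes were not computed for the denominators of this paragraph. Neither direction is therefore read as particular to the Kupffer cell genes.

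Directions therefore depended on the scale. Scaled by the mouse total, 0 of the 7 were called higher and 2, Cd5l and Folr2, lower, against 4.15% and 40.3% of all genes. Scaled by the human and mouse total, 6 of the 7 were called higher, against 87.2% of all genes. The median of all genes itself was 0.50 with TMM, -1.30 with the mouse total, 4.66 with the human and mouse total and 4.42 with macrophage counts. Relative to it, the median of the 7 was 0.80, 0.79, 0.64 and 0.66 on the log2 scale. Such scalings shift all genes of a library alike, so this distance is nearly fixed by construction and is no sign of stability. Clec4f lay 0.98 to 1.29 above the median gene and Timd4 1.37 to 1.52 above it. Cd5l lay close below it, at -0.36 to -0.18, and Folr2 lay at -3.18 to -2.93. Cd163 is not placed, because its fitted change, against 0 counts, is no bound.

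**Figure D4:**
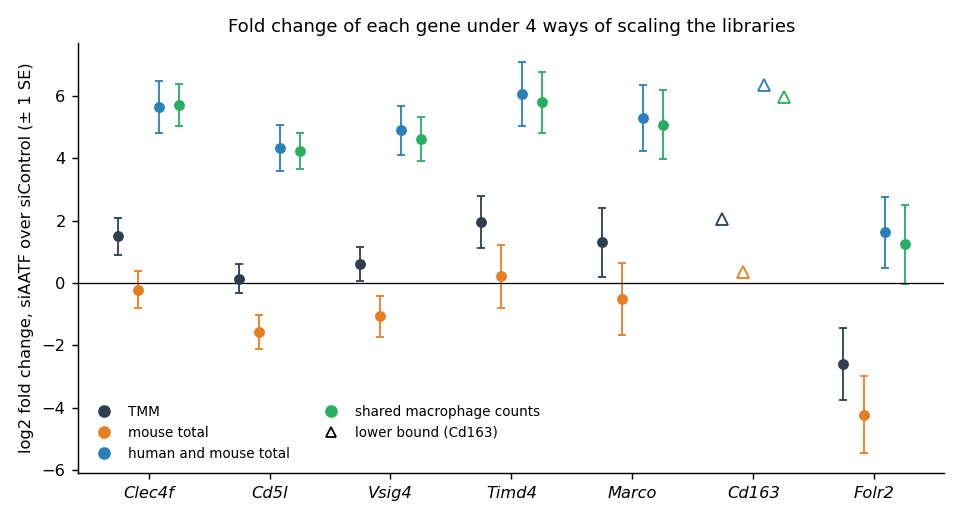
Log2 fold change of each gene (siAATF over siControl, ± 1 SE of the fit) under 4 ways of scaling the 3 + 3 libraries. Triangles are the lower bounds of Cd163, which had 0 siControl counts. The human and mouse total and the macrophage counts lift all genes, and the mouse total puts Clec4f, Cd5l, Vsig4, Marco and Folr2 below 0.

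The transcription factors that set Kupffer cell identity did not move as one. Of 8, 1 rose and 4 fell on the TMM scale, against 17.6% and 14.4% of all genes, with a median log2 fold change of -0.63 against 0.50 over all genes, whereas with the human and mouse total, by which 87.2% of all genes were called higher with a median of 4.66, all 8 were called higher (median 3.63). With the mouse total 0 were called higher and 5 lower (median -2.45), against 4.15% and 40.3% of all genes and their median of -1.30. Nr1h3, the LXRα gene, which hepatocytes express too, rose from 20.1 ± 12.1 to 141 ± 32.8 CPM (SD, n = 3; log2 fold change 2.72, SE 0.49, adjusted p = 0.00107), but with the mouse total it was 0.98 and did not pass (adjusted p = 0.141). Maf (0.37, adjusted p = 0.513) and Id3 (0.34, adjusted p = 0.564) did not pass. Among those that fell, named after their values were seen, were Zeb2, Rbpj and Id1, at -2.54 to -1.61 with adjusted p from 0.000346 to 0.0101. Of 7 other genes enriched in Kupffer cells, 2 rose and 2 fell with TMM (median -0.58), against 17.6% and 14.4% of all genes, and with the human and mouse total 6 were called higher (median 3.89), again near the 87.2% of all genes and under their median of 4.66. With the mouse total 1 was called higher and 4 lower (median -2.30), against 4.15% and 40.3% of all genes and their median of -1.30. C6, a complement component, rose by a log2 fold change of 3.35 (SE 0.64, adjusted p = 0.00170), as did Fcna, the Kupffer cell ficolin, by 3.41 (SE 0.69, adjusted p = 0.00235), the latter named after its value was seen. With the mouse total C6 was 1.67 (adjusted p = 0.0339) and Fcna was 1.69 and did not pass (adjusted p = 0.0949). Hmox1, which breaks down haem, fell by 3.56 on the log2 scale (adjusted p = 0.000812), and Cfp, complement properdin, fell by 1.89 (adjusted p = 0.00379).

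Of the 14 ligands and receptors of the Kupffer cell niche, 0 rose and 8 fell with TMM (median -1.70, against 14.4% of all genes called lower), and with the human and mouse total 9 were called higher and 0 lower (median 2.61), against 87.2% of all genes called higher and their median of 4.66. Scaled by the mouse total, 13 were called lower (median -3.48), against 40.3% of all genes. Csf1r, the receptor on which macrophage survival depends, went from 178 ± 46.5 to 15.2 ± 6.78 CPM (SD, n = 3; log2 fold change -3.54, adjusted p = 0.000190). Its ligand Csf1 fell by 2.50 on the log2 scale (adjusted p = 0.00130), and Eng, a co-receptor for TGF-β family ligands on endothelium, fell by 1.88 (adjusted p = 0.00444). Of the 12 monocyte and recruited macrophage genes, 8 fell and 1, Arg1, rose with TMM (median -4.54), against 14.4% and 17.6% of all genes. With the human and mouse total 3 were called higher and 3 lower (median -0.26). On that scale 87.2% of all genes were called higher and 0.66% lower, with a median of 4.66. By the mouse total 11 were called lower, against 40.3% of all genes, and Arg1 was still called higher (1.79, adjusted p = 0.0193). Spp1, osteopontin, fell from 1616 ± 592 to 38.6 ± 3.87 CPM (log2 fold change -5.39), Plac8 fell by 3.69, and Arg1 rose by 3.61.

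Markers of other liver cells moved with the group as well. All 10 hepatocyte markers rose on the TMM scale (median log2 fold change 4.58), against 17.6% of all genes and their median of 0.50. Among the 10 were Alb (4.23), Apoa1 (4.24) and Fgb (3.12), and none was at 0 in either group. With the mouse total 9 were called higher (median 2.89), against 4.15% of all genes, and Fgb was 1.29 and did not pass (adjusted p = 0.235). Of 8 sinusoidal endothelial markers, 2 rose and 3 fell with TMM, against 17.6% and 14.4% of all genes. Clec4g (3.48) and Dnase1l3 (adjusted p = 0.0171) rose, and Fcgr2b (-2.87), Stab1 (-2.03) and Lyve1 (-2.21) fell, some of them named after their values were seen. Stab2 did not pass (0.85, adjusted p = 0.106). With the human and mouse total all 8 were called higher, near the 87.2% of all genes, and with the mouse total 0 were called higher and 3 lower, near the 4.15% and 40.3% of all genes. Their sum was 0.0554% to 0.0833% of mouse counts in siControl and 0.00534% to 0.0202% in siAATF. Of 6 fibroblast markers, 5 fell with TMM, against 14.4% of all genes, led by Col1a1 (-8.27), Col1a2 (-6.71) and Col3a1 (-6.67). With the human and mouse total 3 were called lower and 1 higher, against 0.66% and 87.2% of all genes. The list went from 1.43% to 2.37% of mouse counts in siControl to 0.0158% to 0.0325% in siAATF. Of 6 neutrophil markers, 5 fell with TMM, against 14.4% of all genes, S100a9 (-4.80) and Csf3r (-4.47) among them, while S100a8 did not pass (-4.10, adjusted p = 0.0570). The list took 0.0162% to 0.360% of mouse counts in siControl and 9.29e-05% to 0.00675% in siAATF. With the human and mouse total 0 of the 6 were called in either direction, against 87.2% of all genes called higher and 0.66% lower. Of the 4 lymphocyte and NK markers tested out of 6, Gzma (-2.90) and Nkg7 (-3.46) fell with TMM, against 14.4% of all genes, and Cd79a (-1.50, adjusted p = 0.214) did not pass. With the human and mouse total 2 of the 4 were called higher, below the 87.2% of all genes. With the mouse total all 6 fibroblast, all 6 neutrophil and 3 of the 4 lymphocyte and NK markers were called lower, against 40.3% of all genes. Cd3e, named after its values were seen, was at 0 in siAATF. The list took 0.00156% to 0.00405% and 2.53e-05% to 0.000303% of mouse counts. The part of these cell types in the values of the Kupffer cell genes was not tested.

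**Figure D5:**
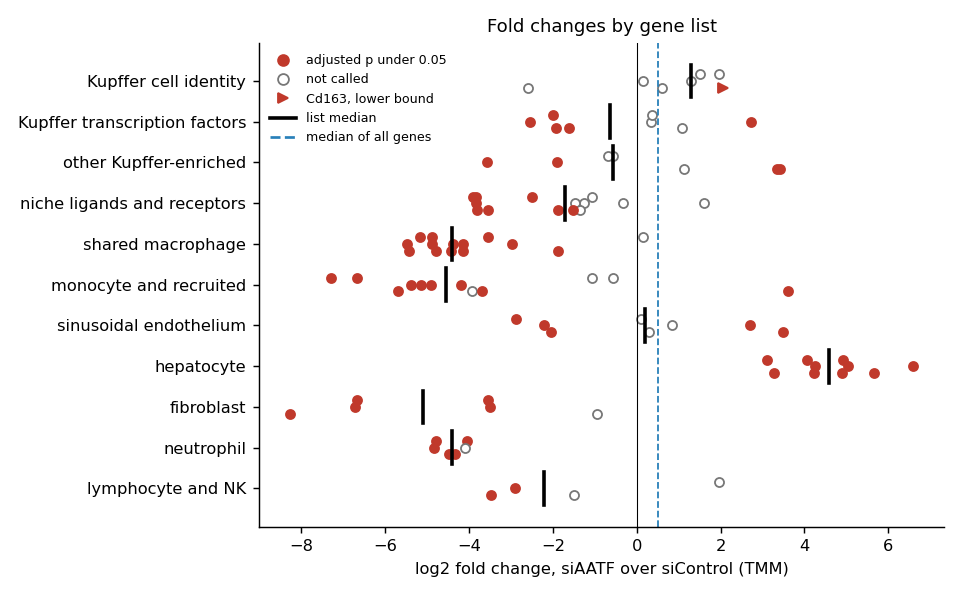
Log2 fold change (siAATF over siControl, TMM scale) of each gene tested in 11 lists, with filled points for an adjusted p under 0.05, open points for genes not called, black bars for list medians and a dashed line for the median of all genes, 0.50. The median of the Kupffer cell identity genes (1.30) lies right of that of the shared macrophage genes (-4.40) and left of that of the hepatocyte markers (4.58). Single genes can differ, as Folr2 (-2.59) lies left of the shared macrophage gene Mertk (0.16).

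Across the 6 libraries, the mean standardized log2 CPM of the 7 genes was lowest in siControl replicate 2 (-1.42) and highest in siAATF replicates 1 (0.67) and 3 (0.64), with siAATF replicate 2 at -0.01 and siControl replicate 1 at 0.34. The libraries did not divide cleanly by group in this mean. Among 9390 genes with a mean of at least 50 counts and outside the lists, the nearest in pattern were Pno1 (Pearson's r = 0.992), Mlx (0.992), Commd7 (0.991), Bmpr1a (0.991) and Mpc1 (0.990). These r values rest on 6 points that share library, depth and group, and 8.40% of the 9390 genes had an r above 0.9. Pairs among the 7 genes had r from -0.47 (Cd163 and Folr2) to 0.91 (Clec4f and Marco).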

How the data were processed

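Gene counts of 6 libraries from mice with human tumor cells in the liver were analysed. The authors trimmed the reads, aligned them to the joined human (GRCh38) and mouse (GRCm39) genomes, dropped reads with more than 1 place or with both species as a match, and counted the others per gene. The submitters' processing notes name STAR 2.7.11 and featureCounts 2.0.1, and counting used gencode release 33 for mouse. The deposited values are raw counts without normalization, in a mouse table of 56884 genes and a human table, from which 1 gene broken over 3 lines was left out. Names came from gencode release 39, which matched 56323 identifiers, and coordinates are those of the deposited table. Groups came from the sample titles.

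Groups were compared by the quasi-likelihood test of edgeR 4.0.16 (R 4.3.3, with limma 3.58.1), with TMM scaling, a total of at least 10 counts per gene and the group as the only term, and was tested on simulated data. DESeq2 1.42.0 was an alternative. Ratios, shares, TPM and exact permutation tests used Python 3.11.15 and scipy 1.17.1. Counting limits for genes without counts use 3 counts over the group, and intervals are 95% exact. Promoters came from a RefSeq table of GRCm38.p6, and both strands were searched. No replicates were near-identical.

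The 7 genes, the 10 other lists and the tests were chosen with earlier results of these data known. Named genes are the 7, Aatf, the 3 of highest mean CPM in each other list and the 5 nearest in pattern outside the lists, and any other is marked as chosen on its value. Values of 1 listed gene are not reported here.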

Additional observations from a re-analysis of the deposited data

How the results depend on the processing

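Of the 7 genes, Timd4 had a positive fold change under all 17 alternatives that could be run for it, the lowest being 0.22 with the mouse total. For Cd163, with 0 siControl counts, a positive sign was all but fixed in advance. The number called higher is given with the share of all genes called higher. It was 2 with limma-voom (13.9%), without a gene filter (14.7%) and with the replicate block (21.4%), 6 with the human and mouse total (87.2%) or the macrophage counts (82.1%), and 0 with the mouse total (4.15%), with filterByExpr (23.2%, 4 of the 7 tested) and with all libraries thinned to the smallest mouse total (13.3%, 3 tested). It was 0 to 3 with each library left out (9.08% to 21.0%). The number called lower was 1 with limma-voom (17.0% of all genes) and with the study's cut-offs put on the edgeR fit (13.1%). On the DESeq2 fit, the study's own test, those cut-offs did not call Folr2 lower. The number called lower was also 1 with the mouse total without mitochondrial genes (30.7%), an alternative chosen after seeing the data. It was 2 with the mouse total (40.3%). The median log2 fold change of the 7 is given with that of all genes in brackets. It was 0.65 with limma-voom (-0.09), -0.52 with the mouse total (-1.30) and -0.12 without mitochondrial genes in that total (-0.76). It was 5.30 with the human and mouse total (4.66), 5.08 with the macrophage counts (4.42) and 0.087 after thinning (-0.30). With each library left out it was 0.74 to 1.75 (0.47 to 0.60).

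Signs turned with the mouse total for Clec4f (-0.21), Vsig4 (-1.08), Cd5l (-1.57) and Marco (-0.52), and without mitochondrial genes in that total for Vsig4 (-0.64), Cd5l (-1.10) and Marco (-0.12). They also turned after thinning for Vsig4 (-0.92), with upper-quartile normalization for Cd5l (-0.12), with siControl replicate 2 left out for Cd5l (-0.19, in a range of -0.19 to 0.79 with each library left out), and for Folr2 with the human and mouse total (1.62) and the macrophage counts (1.24). The log2 ratio of the 7 genes to the shared macrophage counts was 5.11. It was 6.26 per Adgre1 count, 6.58 per Cd68 count, 2.26 per recruited macrophage count, 2.29 per sinusoidal endothelial count and -2.94 per hepatocyte marker count, the last 2 chosen after seeing the data, 5.52 per recruited macrophage count without Arg1, also chosen then, and 4.81 to 5.45 with each library left out. The causes were not tested, beyond the scale or denominator each alternative sets.

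Same-numbered replicates had correlations of their deviations of 0.096, 0.13 and -0.026, so the numbers were not taken to pair the libraries, and not every library correlated best with its own number. With the replicate block 2 of the 7 genes were called higher, Clec4f (1.86) and Cd163, in place of 1. Requiring 10 counts per gene in each of the 6 libraries left none of the 7 to fit. The siControl mouse totals of 213022 to 913584 counts limit all folds of Timd4, Marco, Cd163 and Folr2, which had 0 to 5 counts in each siControl library.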
